A study of Mus musculus with 12 samples.

Results

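A set of 35 microglia genes was followed in medial prefrontal cortex RNA of 2 inbred mouse strains, with and without chronic restraint stress (CRS). The genes were given by name and matched to the gene name on each row of the expression table, with rows of the same name summed. All 35 names were found among 55678 in the table, and all 35 were among the 16423 genes that reached 1 TPM in at least 3 libraries and were tested. TPM, a relative abundance, corrects for transcript length and gives every library the same total, so levels of different genes can be compared within a library. Every one of the 35 genes stood at 1 TPM or more in all 12 libraries, so no gene entered the test through 1 group alone.

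The study asked how the prefrontal response to chronic restraint differs between the strains. The B6 groups were C57BL/6JmsSlc mice, as control libraries 2, 3 and 9 and CRS libraries 12, 13 and 14. The BALB/c groups were BALB/cCrSlc mice, as control libraries 5, 9 and 10 and CRS libraries 12, 13 and 15. Values below are given in that order. CRS mice were held in polyethylene restrainers in the home cage for 6 h a day on 21 days, and controls were handled without restraint. All mice were 9 to 10 weeks old, carried no named transgene, and went through behavioural tests before a 1.5 mm punch was taken from sections between 2.0 and 1.5 mm in front of bregma. The labels used here do not give sex, and do not say that each library came from a separate mouse, so p-values measure the spread between these libraries.

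Microglia are the resident macrophages of the brain. They depend on signalling through the receptor Csf1r, are held in a resting, surveying state partly by TGF-beta from neighbouring cells, and survey tissue through purine and chemokine receptors such as P2ry12 and Cx3cr1. They are the main source of C1q in the brain, the recognition molecule of the classical complement pathway, which is assembled from the products of C1qa, C1qb and C1qc and can tag synapses for removal. The transcription factors PU.1 (Spi1), Irf8 and Sall1 keep up their identity, and the adaptor Tyrobp carries signals from receptors such as Trem2.

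The tissue was a punch of whole tissue aimed at prefrontal cortex, so every value mixes cell types. For a microglia gene, fewer cells and less RNA per cell cannot be told apart. Mitochondrial transcripts took 17.4% to 23.9% of TPM per library, and ribosomal RNA took 3.97% in BALB/c CRS 12 against 0.031% to 0.169% in the other 11 libraries. Markers of other cell populations also differed between strains. Averaged over treatment, limma called lower in BALB/c 8 of 8 oligodendrocyte, 8 of 8 striatal neuron, 3 of 8 astrocyte, 3 of 6 interneuron and 2 of 7 choroid plexus and meningeal markers. It called higher 3 of 8 excitatory neuron markers and 1 of 6 interneuron markers, and none of 8 endothelial and pericyte markers either way. Of all tested genes, 14.3% were called lower and 18.4% in either direction. Beside these shares, counts such as 2 of 7 or 1 of 6 do not show that a population moved. The 8 oligodendrocyte markers summed to 2486 to 9576 TPM in B6 and 474 to 3052 TPM in BALB/c, and the 8 striatal neuron markers to 217 to 2830 TPM and 118 to 395 TPM. Both ends of the B6 ranges were controls, B6 control 9 the lowest and B6 control 2 the highest. Marker content thus differed widely between libraries of 1 group, and what the punches held beside cortex was not tested. The 8 astrocyte markers summed to 1401 to 1637 TPM in B6 and 1041 to 1315 TPM in BALB/c, and the 8 endothelial and pericyte markers to 124 to 142 TPM and 123 to 138 TPM. The astrocyte sums did not overlap between strains. The strain differences of the 35 genes were also fitted with an oligodendrocyte or a striatal score, the mean log2(TPM + 1) of the markers, as a covariate. The oligodendrocyte score was 7.11 to 8.99 in B6 and 4.66 to 7.29 in BALB/c, and the striatal score 3.80 to 7.77 and 3.40 to 4.93. Both scores thus moved with strain, and these fits cannot fully tell the 2 apart. A call lost with a score does not assign the difference to either. No fit with a score was made for the other populations, and their part in the results was not tested.

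The set covered a wide range of levels. The lysosomal protease legumain (Lgmn) was highest with a mean of 85.7 TPM over the 12 libraries, followed by cathepsin S (Ctss) at 63.0 TPM, C1qa at 60.9 TPM and C1qb at 47.3 TPM. A mean of 10 TPM or more was reached by 20 of the 35, and 5 lay under 5 TPM: Spi1, Irf8, Hpgds, the G-CSF receptor Csf3r at 2.66 TPM and the lipopolysaccharide co-receptor Cd14 at 2.49 TPM. The spread between libraries of a group, as a pooled SD on the log2(TPM + 1) scale, ran from 0.10 for Lgmn to 0.35 for Spi1, with a median of 0.159. Spi1, Inpp5d and Cd14 varied most, and Lgmn, C1qa and Gpr34 least.

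In BALB/c the set as a whole stood lower than in B6. The summed level of the 35 genes was 860, 822 and 715 TPM in B6 controls, 702, 789 and 761 TPM in B6 CRS, 614, 601 and 621 TPM in BALB/c controls and 567, 610 and 593 TPM in BALB/c CRS. The lowest B6 library thus lay above the highest BALB/c library, and the BALB/c mean was 77.6% of the B6 mean. These sums are of TPM as deposited. Median-of-ratios size factors, which even out the typical gene between libraries, were 1 to 1.101 in B6 and 0.8755 to 1.062 in BALB/c. The sums were not rescaled by them, which would narrow the gap between strains. The summed astrocyte markers also did not overlap between strains, with a BALB/c mean at 78.02% of the B6 mean. By role, the BALB/c mean was 63.9% of the B6 mean for the 3 C1q chains, 72.3% for the 10 innate receptors and adaptors, 75.9% for the 3 transcription factors and 79.4% for the 3 cytoplasmic and secreted genes. It was 85.5% for the 10 homeostatic receptors and transporters, 85.3% for the 4 lysosomal and phagocytic genes and 85.2% for the 2 growth factor receptors. Single libraries also stood out, since B6 control 2 was the highest of all 12 for 15 of the 35 genes and BALB/c control 9 the lowest for 10.

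**Figure D1:**
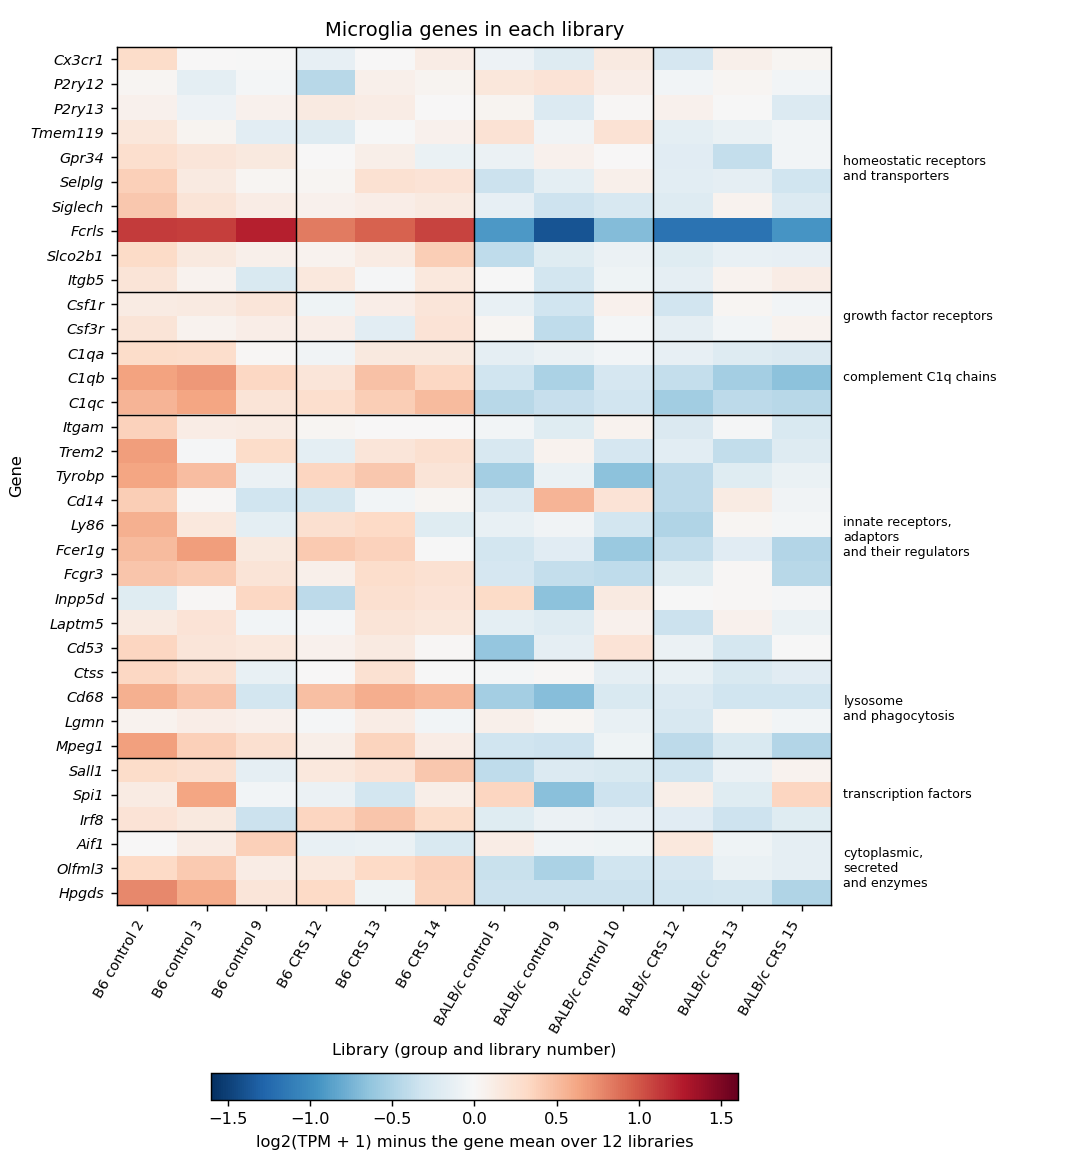
Level of each of the 35 microglia genes (rows, grouped by role) in each of the 12 libraries (columns, by group and library number), as log2(TPM + 1) minus the gene's mean over the 12 libraries. Red is above that mean and blue below it; Fcrls, C1qb and C1qc are red in all 6 B6 libraries and blue in all 6 BALB/c libraries, while the P2ry12, Cx3cr1 and Tmem119 rows show no such division.

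Between the strains, 10 of the 35 genes differed in controls and 6 under CRS, and all of these were lower in BALB/c. Called here means a Benjamini-Hochberg adjusted p under 0.05 over all 16423 genes in limma. In controls, 3.37% of all tested genes were called lower in BALB/c and 4.73% in either direction, and the 10 microglia genes were Fcrls, C1qb, C1qc, Olfml3, Fcgr3, Hpgds, Fcer1g, Mpeg1, Siglech and Tyrobp. Under CRS, 5.33% of all genes were called lower and 7.7% in either direction, and the 6 were Fcrls, C1qc, C1qb, Cd68, Mpeg1 and Irf8. Fcrls, C1qb, C1qc and Mpeg1 made up the 4 called in both. With the strain difference averaged over treatment, 17 of the 35 were called, all lower, against 14.3% of all genes called lower and 18.4% in either direction. The number of genes called in controls dropped to 5 without B6 control 2, 4 without B6 control 3, 5 without BALB/c control 5 and 5 without BALB/c control 10, and under CRS to 3 without any 1 of BALB/c CRS 12, 13 or 15 or of B6 CRS 12 or 13.

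Counts of direction need the shift of all genes beside them. In controls 32 of the 35 differences were below 0, against 67.7% of all genes, with a median log2 difference of -0.33 against -0.10 over all genes. Under CRS 32 were below 0, against 58.7%, with a median of -0.26 against -0.06. All 3 BALB/c libraries lay below all 3 B6 libraries for 17 genes in controls (18.7% of all genes) and for 20 under CRS (20% of all genes), and above them for 1 in controls, P2ry12 (4.16% of all genes), and for none under CRS (9.29% of all genes). Averaged over treatment 32 were below 0, against 63.8%, with a median of -0.31 against -0.08. All 6 BALB/c libraries lay below all 6 B6 libraries for 11 of the 35, against 6.94% of all genes. Median-of-ratios scaling, which moves the median of all genes to 0.0043 in controls and 0.0011 under CRS, left medians of -0.21 and -0.19 for the 35 genes, with 30 and 28 below 0. Under that scaling 6 microglia genes were called in controls, 3 under CRS and 12 averaged, and the split of all called genes in controls moved from 553 lower of 777 to 395 lower of 730, under CRS from 875 of 1264 to 754 of 1410, and averaged from 2356 of 3021 to 1724 of 3198.

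**Figure D2:**
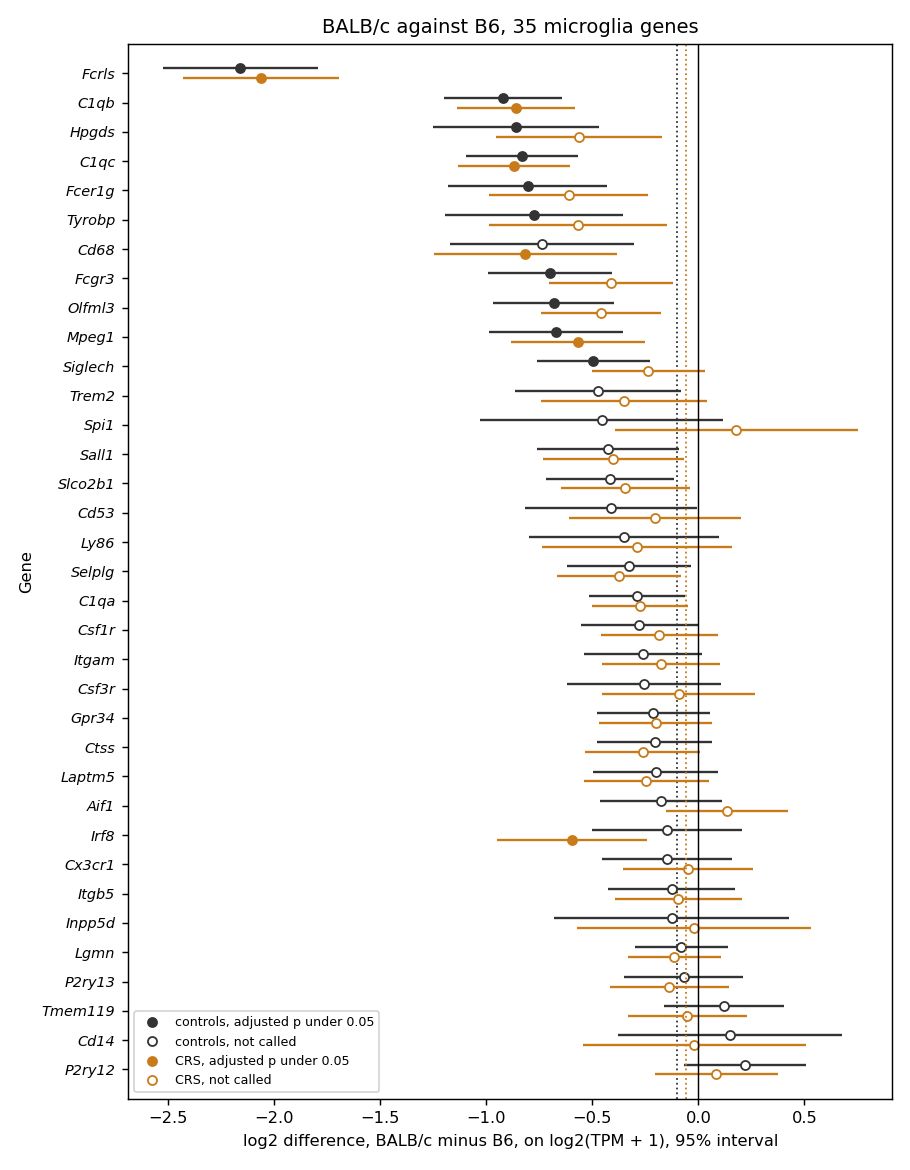
Log2 difference of BALB/c minus B6 on the log2(TPM + 1) scale (x axis) for the 35 microglia genes (y axis, ordered by the difference in controls), in controls (black) and under CRS (orange), with 95% limma intervals. Filled points have an adjusted p under 0.05 and dotted lines mark the median of all 16423 genes; Fcrls lies apart near -2.1 in both, and P2ry12, Cd14 and Tmem119 are the 3 genes above 0 in controls.

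The clearest single difference was in Fcrls, an Fc receptor-like scavenger receptor that marks brain microglia. It stood at 17.1, 16.9 and 18.7 TPM in B6 controls, 13.9, 15.1 and 16.6 TPM in B6 CRS, 3.39, 2.19 and 4.14 TPM in BALB/c controls and 2.66, 2.67 and 3.32 TPM in BALB/c CRS. The 6 B6 libraries and the 6 BALB/c libraries were far apart, and the BALB/c mean was 81.3% lower than the B6 mean. The log2 difference was -2.16 (SE 0.17, adjusted p 4.48e-06) in controls and -2.06 (SE 0.17, adjusted p 7.24e-06) under CRS by limma. Fcrls was called in all 3 strain comparisons under every alternative run, the oligodendrocyte score (averaged log2 difference -2.43) and the striatal score (-2.33) included. A single row of the table held 97.1% of its TPM, and in that row alone the averaged difference was -2.15.

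In the C1q genes the chains differed in size of effect. C1qb stood at 70.6, 73.1 and 56.6 TPM in B6 controls, 51.5, 62.3 and 56.8 TPM in B6 CRS, 35.8, 31.3 and 36.9 TPM in BALB/c controls and 34.1, 30.5 and 28.1 TPM in BALB/c CRS. C1qc stood at 59.0, 62.7 and 46.5 TPM in B6 controls, 48.8, 53.4 and 57.9 TPM in B6 CRS, 29.3, 30.9 and 32.5 TPM in BALB/c controls and 27.0, 29.99 and 29.3 TPM in BALB/c CRS. For both genes every BALB/c library was below every B6 library. C1qb was lower in BALB/c by a log2 difference of -0.92 (SE 0.13, adjusted p 0.00092) in controls and -0.86 (SE 0.13, adjusted p 0.00156) under CRS, and C1qc by -0.83 (SE 0.12, adjusted p 0.00135) and -0.87 (SE 0.12, adjusted p 0.000946), by limma.

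C1qa, the gene for the A chain, stood at 74.6, 73.4 and 61.2 TPM in B6 controls, 58.3, 67.7 and 67.4 TPM in B6 CRS, 54.5, 56.5 and 58.9 TPM in BALB/c controls and 55.3, 52.1 and 51.4 TPM in BALB/c CRS. Its BALB/c libraries lay below the B6 libraries within each treatment, but B6 CRS 12 at 58.3 TPM was below BALB/c control 10 at 58.9 TPM. Its log2 difference was -0.29 (SE 0.10, adjusted p 0.15) in controls and -0.28 (SE 0.10, adjusted p 0.126) under CRS, neither called by limma, and -0.28 (SE 0.073, adjusted p 0.0197) averaged over treatment, which was called. That last call was lost without B6 control 3 (adjusted p 0.0526, limma), without B6 CRS 13 (0.0501), under median-of-ratios scaling (0.155), with the oligodendrocyte (0.583) or striatal score (0.445), and in 6 of 23 alternatives in all. In controls C1qa was called only without B6 control 9 (adjusted p 0.0434, limma).

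The ratio of chains within a library does not depend on how the libraries are scaled. C1qa stood at 1.00 to 1.19 times C1qb in the 6 B6 libraries and at 1.52 to 1.83 times in the 6 BALB/c libraries, and at 1.16 to 1.32 and 1.74 to 2.05 times C1qc. The C1qc to C1qb ratio was 0.822 to 1.02 in B6 and 0.790 to 1.04 in BALB/c. An exact two-sided permutation of strain labels within treatment gave p = 0.005 for C1qa/C1qb (log2 difference 0.62) and p = 0.005 for C1qa/C1qc (0.58), the smallest p that 400 relabellings allow, and p = 0.625 for C1qc/C1qb. All were picked after their values were seen, so these p restate a division already seen and are no further support for it. Adjustment over the ratios does not correct for that choice. Adjusted over the 4 ratios computed, the fourth of which only restated the difference in Fcrls and is not given, these p were 0.00667, 0.00667 and 0.625. C1qa and C1qb each came from a single row of the table, and C1qc held 98.8% of its TPM in 1 row.

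With an oligodendrocyte or striatal score in the fit, C1qb and C1qc stayed among the called genes averaged over treatment. C1qb had a log2 difference of -0.91 with the oligodendrocyte score and -0.82 with the striatal score, and C1qc of -0.77 and -0.75. Within treatment some of these calls were lost: C1qc in controls (adjusted p 0.0552, limma) and under CRS (0.0524) with the oligodendrocyte score, and C1qb (0.128) and C1qc (0.119) under CRS with the striatal score. Fcrls, C1qb and C1qc were the only genes of the 35 called averaged over treatment with either score, and these fits called 367 and 506 genes of all in place of 3021.

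The 3 C1q genes lie next to each other on the minus strand of chromosome 4 of GRCm38, C1qb at chr4:136880129-136886187, C1qc at chr4:136889804-136893065 and C1qa at chr4:136895917-136898803, by GENCODE M21. Fcrls is on the minus strand at chr3:87250758-87263738. The 250 bases before the RefSeq start site (GRCm38.p6) are printed for the 3 genes with the largest and steadiest differences and for P2ry12 and Cx3cr1, whose levels overlapped between strains over the 12 libraries. Capitals mark the core motif of PU.1, GAGGAA, on either strand (TTCCTC when it lies on the other strand).
Fcrls, chr3:87263525-87263774, minus strand: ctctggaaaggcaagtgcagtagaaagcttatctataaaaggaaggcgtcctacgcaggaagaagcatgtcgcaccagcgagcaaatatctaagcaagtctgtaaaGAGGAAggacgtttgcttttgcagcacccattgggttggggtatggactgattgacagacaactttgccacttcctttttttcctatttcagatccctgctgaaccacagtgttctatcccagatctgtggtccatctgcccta
C1qb, chr4:136886201-136886450, minus strand: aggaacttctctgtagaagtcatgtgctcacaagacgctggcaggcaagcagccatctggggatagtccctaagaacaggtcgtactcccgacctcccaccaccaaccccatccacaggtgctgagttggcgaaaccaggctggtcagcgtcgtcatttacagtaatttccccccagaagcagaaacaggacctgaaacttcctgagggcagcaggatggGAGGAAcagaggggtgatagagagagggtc
C1qc, chr4:136892915-136893164, minus strand: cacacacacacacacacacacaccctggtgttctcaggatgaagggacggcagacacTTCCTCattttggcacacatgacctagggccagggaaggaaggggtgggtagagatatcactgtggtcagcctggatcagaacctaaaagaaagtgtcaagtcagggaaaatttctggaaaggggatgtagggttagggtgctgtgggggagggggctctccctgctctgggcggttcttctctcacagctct
P2ry12, chr3:59262986-59263235, minus strand: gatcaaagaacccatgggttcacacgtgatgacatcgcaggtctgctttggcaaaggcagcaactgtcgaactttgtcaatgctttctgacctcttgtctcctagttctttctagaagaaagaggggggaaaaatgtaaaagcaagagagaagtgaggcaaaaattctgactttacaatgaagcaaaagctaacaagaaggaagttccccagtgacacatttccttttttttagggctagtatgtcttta
Cx3cr1, chr9:120068297-120068546, minus strand: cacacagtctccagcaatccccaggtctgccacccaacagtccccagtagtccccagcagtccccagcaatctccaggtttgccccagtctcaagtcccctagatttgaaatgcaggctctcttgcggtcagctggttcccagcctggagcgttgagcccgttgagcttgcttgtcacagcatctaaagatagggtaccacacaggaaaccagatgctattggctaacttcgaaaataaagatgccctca

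The motif begins 144 bases before the start site in Fcrls, 30 in C1qb and 193 in C1qc, and these letters are not in the windows of P2ry12 and Cx3cr1. RefSeq promoters were matched for 27 of the 35 genes. Over the whole window of 250 bases before to 50 after the start, GAGGAA was found for 17 of these 27 (63.0%), against 31.2% of 27025 genes with a promoter in the table. It was found for 9 of the 14 matched genes called averaged over treatment and for 8 of the 13 matched genes not called, a comparison that was not tested. The longer ETS-IRF composite element, searched on both strands, was in 1 of the 27 (Cd68), against 3.16% of all genes. A match is only a match of letters and was not tied to any binding.

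**Figure D3:**
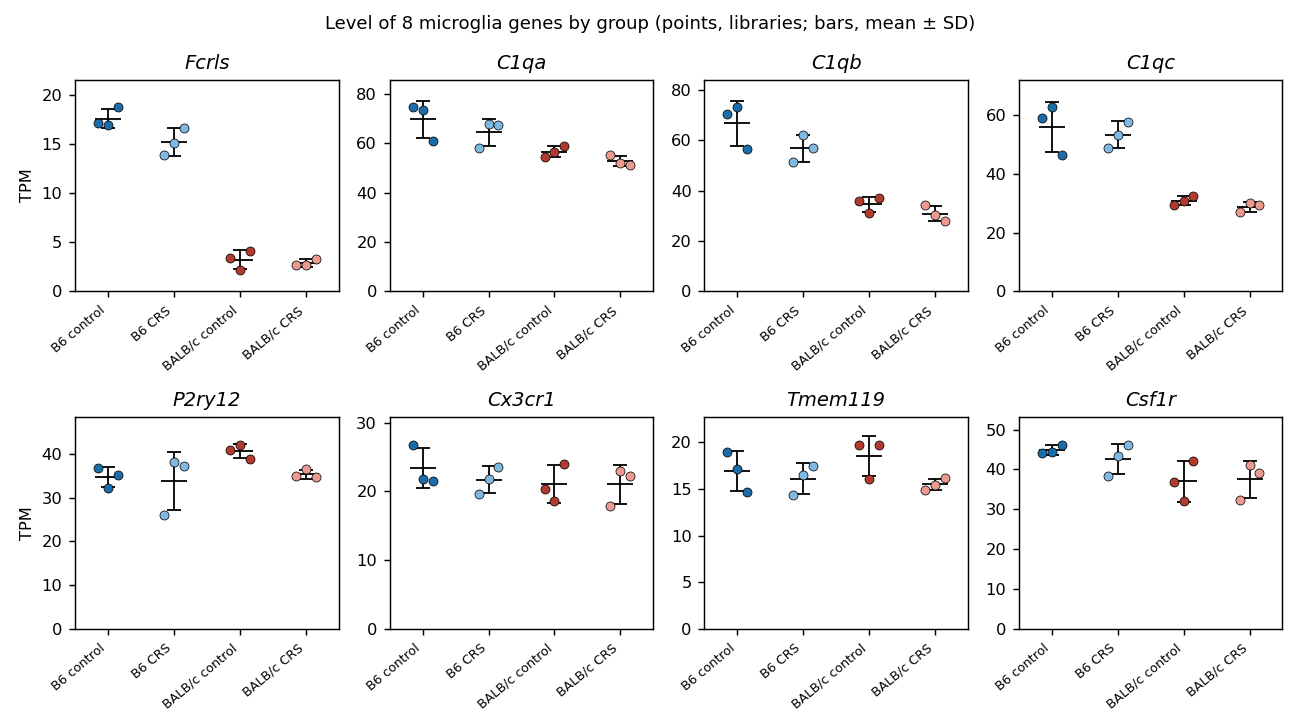
TPM of 8 microglia genes (1 panel each, y axes from 0) in the 4 groups; points are libraries and bars are the group mean ± SD (n = 3). Fcrls, C1qb and C1qc separate the strains in both treatments, C1qa lies closer together, and P2ry12, Cx3cr1, Tmem119 and Csf1r overlap between strains over the 12 libraries.

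The widely used homeostatic markers P2ry12, Cx3cr1 and Tmem119 were not called in any strain comparison. P2ry12, the ADP receptor that steers microglial processes, stood at 36.9, 32.3 and 35.3 TPM in B6 controls, 26.2, 38.1 and 37.2 TPM in B6 CRS, 40.9, 42.2 and 39.0 TPM in BALB/c controls and 34.9, 36.7 and 34.8 TPM in BALB/c CRS. All 3 BALB/c controls were above the B6 controls, while B6 CRS 12 was the lowest library of all, and the log2 difference was 0.22 (95% interval -0.068 to 0.51) in controls and 0.085 (95% interval -0.20 to 0.37) under CRS, which became -0.085 without B6 CRS 12. Cx3cr1, the fractalkine receptor, stood at 26.8, 21.8 and 21.6 TPM in B6 controls, 19.7, 21.8 and 23.6 TPM in B6 CRS, 20.4, 18.6 and 24.0 TPM in BALB/c controls and 17.8, 23.0 and 22.2 TPM in BALB/c CRS. Its strains overlapped in both treatments, with a log2 difference of -0.15 (95% interval -0.45 to 0.16) in controls and -0.048 (95% interval -0.35 to 0.26) under CRS. Without BALB/c CRS 12 the latter was 0.06, and it was also above 0 without B6 CRS 14 (0.012) and under median-of-ratios scaling (0.017).

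Tmem119, a membrane protein used to tell microglia from blood macrophages, stood at 19.0, 17.2 and 14.7 TPM in B6 controls, 14.3, 16.6 and 17.5 TPM in B6 CRS, 19.7, 16.03 and 19.8 TPM in BALB/c controls and 14.9, 15.4 and 16.2 TPM in BALB/c CRS. Its log2 difference was 0.12 (95% interval -0.16 to 0.40) in controls and -0.051 (95% interval -0.33 to 0.23) under CRS, the latter 0.014 under median-of-ratios scaling and 0.0065 without B6 CRS 14. The adenine nucleotide receptor P2ry13 had a log2 difference of -0.10 (95% interval -0.30 to 0.10) averaged over treatment, the lysophosphatidylserine receptor Gpr34 -0.21 (95% interval -0.39 to -0.018) and the integrin chain Itgb5 -0.11 (95% interval -0.32 to 0.10). None of these was called, though the interval of Gpr34 lay below 0.

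Of the 10 homeostatic receptors and transporters, 4 were called averaged over treatment, all lower in BALB/c, against 14.3% of all genes. Beside Fcrls these were Siglech, a sialic acid-binding lectin that signals through Tyrobp (-0.36, adjusted p 0.0135), the organic anion transporter Slco2b1 (-0.38, adjusted p 0.0196) and the selectin ligand Selplg (-0.35, adjusted p 0.0249), by limma. Siglech stood at 18.9, 16.002 and 15.0 TPM in B6 controls, 14.5, 14.7 and 15.3 TPM in B6 CRS, 12.5, 10.7 and 11.3 TPM in BALB/c controls and 11.7, 14.2 and 11.6 TPM in BALB/c CRS. All of its BALB/c libraries lay below all of its B6 libraries, and it was also called in controls (-0.49, SE 0.12, adjusted p 0.04). The call of Siglech in controls was lost without B6 control 2 (adjusted p 0.163, limma), B6 control 3 (0.0946), BALB/c control 5 (0.0636), BALB/c control 9 (0.124) or BALB/c control 10 (0.139). It was also lost with B6 control 2 and BALB/c CRS 12 both left out (0.119) and, with every library kept, in 8 alternatives, among them no filter on low values (0.0532), median-of-ratios scaling (0.0922), the oligodendrocyte score (0.472) and the striatal score (0.176), so it held in 4 of 18. The averaged call of Selplg was lost without B6 control 2 (0.0586), B6 CRS 13 (0.057), BALB/c control 5 (0.0588) or BALB/c CRS 15 (0.056). Under median-of-ratios scaling Siglech stayed called averaged over treatment (adjusted p 0.0334) and Slco2b1 (0.0526) and Selplg (0.127) did not. None of these 3 was called with the oligodendrocyte score (0.601, 0.427 and 0.513) or the striatal score (0.413, 0.369 and 0.502).

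The growth factor receptors were not called. Csf1r, through which microglia receive their survival signal, stood at 44.0, 44.4 and 46.2 TPM in B6 controls, 38.5, 43.4 and 46.0 TPM in B6 CRS, 36.9, 32.0 and 42.2 TPM in BALB/c controls and 32.4, 41.2 and 39.0 TPM in BALB/c CRS. In controls the BALB/c libraries lay below the B6 libraries, and under CRS they overlapped. The log2 difference was -0.28 (95% interval -0.55 to -0.0038) in controls, -0.18 (95% interval -0.46 to 0.092) under CRS and -0.23 averaged (adjusted p 0.0955, limma). Csf3r had an averaged difference of -0.17 (95% interval -0.43 to 0.081).

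Ligands of microglial receptors were read from the same libraries. The Csf1r ligand Il34, made mainly by neurons, was at 51.5 to 79.0 TPM in B6 and 65.1 to 104 TPM in BALB/c, with an averaged log2 difference of 0.41 (SE 0.14, adjusted p 0.0679) by limma. The other Csf1r ligand, Csf1, had a difference of -0.22 (95% interval -0.50 to 0.055), and fractalkine (Cx3cl1), the ligand of Cx3cr1, 0.015 (95% interval -0.24 to 0.27). The inhibitory ligand Cd200 had -0.16 (95% interval -0.37 to 0.060), Tgfb1 0.19 (95% interval -0.15 to 0.53) and Tgfb2 -0.088 (95% interval -0.36 to 0.19). None of these 6 was called. Of the 2 bridging ligands of the phagocytic receptor Mertk, Gas6 was not called (-0.18, 95% interval -0.41 to 0.039), while Pros1 was lower in BALB/c averaged over treatment (-0.47, SE 0.12, adjusted p 0.0157) and in controls (-0.68, SE 0.16, adjusted p 0.0355), by limma. Pros1 stood at 8.02, 6.34 and 6.21 TPM in B6 controls, 6.81, 6.44 and 5.10 TPM in B6 CRS, 3.77, 3.52 and 4.44 TPM in BALB/c controls and 5.30, 5.58 and 3.91 TPM in BALB/c CRS. The BALB/c controls lay below the B6 controls, and the CRS libraries overlapped. Pros1 was thus 1 of 8 ligands called, against 14.3% of all genes called lower averaged over treatment and 3.37% in controls. Averaged over treatment, such a count does not set the ligands apart from other genes.

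Among the 10 innate receptors, adaptors and their regulators, 3 were called in controls, none under CRS and 4 averaged over treatment, all lower in BALB/c, against 3.37%, 5.33% and 14.3% of all genes. The 2 signalling adaptors and an activating Fc receptor led. Tyrobp, the adaptor of Trem2 and Siglech, stood at 45.2, 40.8 and 26.8 TPM in B6 controls, 36.9, 39.1 and 33.5 TPM in B6 CRS, 19.5, 26.8 and 17.9 TPM in BALB/c controls and 21.3, 24.97 and 26.8 TPM in BALB/c CRS. Fcer1g, the common chain of Fc receptors, stood at 19.0, 21.4 and 14.7 TPM in B6 controls, 17.8, 17.3 and 13.1 TPM in B6 CRS, 10.5, 11.4 and 8.30 TPM in BALB/c controls and 9.77, 11.4 and 9.15 TPM in BALB/c CRS. Fcgr3, a low-affinity IgG receptor that signals through Fcer1g, stood at 16.7, 16.1 and 13.9 TPM in B6 controls, 12.7, 14.7 and 14.3 TPM in B6 CRS, 9.79, 8.98 and 8.78 TPM in BALB/c controls and 10.4, 12.1 and 8.52 TPM in BALB/c CRS. For all 3 genes every BALB/c library was below every B6 library, for Tyrobp by a margin lost in the rounding (B6 control 9 against BALB/c control 9 and BALB/c CRS 15).

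Averaged over treatment the log2 difference was -0.67 (SE 0.14, adjusted p 0.00601) for Tyrobp, -0.71 (SE 0.12, adjusted p 0.00221) for Fcer1g and -0.55 (SE 0.095, adjusted p 0.00217) for Fcgr3, by limma. In controls Tyrobp had -0.77 (SE 0.19, adjusted p 0.0406), Fcer1g -0.80 (SE 0.17, adjusted p 0.0187) and Fcgr3 -0.70 (SE 0.13, adjusted p 0.00975). Under CRS the adjusted p was 0.0952 for Tyrobp, 0.0508 for Fcer1g and 0.0846 for Fcgr3, and the difference between treatments was itself not called (interaction 0.21, 0.19 and 0.29). In controls the call of Tyrobp was lost without B6 control 2 (adjusted p 0.159, limma), B6 control 3 (0.137), BALB/c control 5 (0.131) or BALB/c control 10 (0.178), that of Fcer1g without the same libraries (0.0682, 0.0835, 0.051 and 0.0949), and that of Fcgr3 without BALB/c control 10 (0.0505). Over all alternatives, those that keep every library included, the call in controls was lost in 13 of 18 for Tyrobp (adjusted p up to 0.772), 10 of 18 for Fcer1g (up to 0.508) and 3 of 18 for Fcgr3 (up to 0.216). The averaged calls held without each single library, and none of the 3 was called with an oligodendrocyte score (adjusted p 0.28 to 0.863) or a striatal score (0.17 to 0.548).

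Trem2, the lipid-sensing receptor that pairs with Tyrobp, stood at 20.7, 12.5 and 15.7 TPM in B6 controls, 11.2, 14.5 and 15.3 TPM in B6 CRS, 10.4, 13.2 and 10.4 TPM in BALB/c controls and 11.2, 9.42 and 10.8 TPM in BALB/c CRS. B6 control 2 was its highest library, and the strains overlapped in controls. Trem2 was called averaged over treatment by limma (-0.41, SE 0.13, adjusted p 0.0418), a call lost without any 1 of 9 of the 12 libraries, B6 control 2 among them (-0.41 became -0.32, adjusted p 0.0887), the exceptions being B6 control 3, B6 CRS 12 and BALB/c control 9. It was lost in 16 of 23 alternatives in all, among them no filter on low values (0.0776), median-of-ratios scaling (0.128), the oligodendrocyte score (0.808) and the striatal score (0.682). The remaining 6 genes of this group were not called in any strain comparison: the integrin Itgam (-0.22, 95% interval -0.41 to -0.022 averaged), Cd14 (0.065, 95% interval -0.31 to 0.44), the toll-like receptor partner Ly86 (-0.32, 95% interval -0.64 to -0.0021), the inositol phosphatase Inpp5d (-0.072, 95% interval -0.46 to 0.32), the lysosomal protein Laptm5 (-0.22, 95% interval -0.43 to -0.015) and the tetraspanin Cd53 (-0.31, 95% interval -0.59 to -0.021). Inpp5d spread over 11 rows of the table, the largest with 22.2% of its TPM.

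Of the 4 lysosomal and phagocytic genes, 2 were called averaged over treatment, both lower in BALB/c, against 14.3% of all genes. Cd68, a lysosomal glycoprotein of phagocytes, stood at 15.96, 14.6 and 8.34 TPM in B6 controls, 15.0, 16.1 and 15.4 TPM in B6 CRS, 6.80, 6.10 and 8.64 TPM in BALB/c controls and 8.79, 8.18 and 8.14 TPM in BALB/c CRS. B6 control 9 lay within the BALB/c range, and the other 5 B6 libraries lay above it. The second row of Cd68, 19.9% of its TPM, was listed at 0 in 3 libraries, B6 control 9 among them. In the top row alone the strains did not overlap, at 8.34 to 11.4 TPM in B6 and 4.27 to 8.02 TPM in BALB/c. Mpeg1, which forms pores in phagosomes, stood at 13.0, 10.5 and 9.56 TPM in B6 controls, 8.44, 10.4 and 8.66 TPM in B6 CRS, 6.10, 6.04 and 7.46 TPM in BALB/c controls and 5.62, 6.49 and 5.43 TPM in BALB/c CRS. All of its BALB/c libraries were below all of its B6 libraries.

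Cd68 was called under CRS (-0.81, SE 0.20, adjusted p 0.0293) and averaged over treatment (-0.78, SE 0.14, adjusted p 0.00305) and had -0.74 (SE 0.20, adjusted p 0.0579) in controls, by limma. Mpeg1 was called in controls (-0.67, SE 0.14, adjusted p 0.02), under CRS (-0.57, SE 0.14, adjusted p 0.035) and averaged (-0.62, SE 0.10, adjusted p 0.00176). Both averaged calls held without each single library and under median-of-ratios scaling, and neither gene was called with an oligodendrocyte score (adjusted p 0.265 and 0.227) or a striatal score (0.295 and 0.2). Under CRS both calls were lost whichever of the 6 libraries was left out (0.0643 to 0.085 for Cd68 and 0.0564 to 0.119 for Mpeg1), and over all alternatives in 12 of 18 for Cd68 and 14 of 18 for Mpeg1. In controls Mpeg1 lost its call without B6 control 2 (0.0888), B6 control 3 (0.0555), BALB/c control 5 (0.078) or BALB/c control 9 (0.0707), and in 10 of 18 alternatives in all. The highest genes of the set were not called: Ctss had an averaged difference of -0.23 (95% interval -0.42 to -0.042) and Lgmn of -0.10 (95% interval -0.25 to 0.059).

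The transcription factors were low in level. Sall1, which maintains microglial identity, stood at 8.84, 8.60 and 6.28 TPM in B6 controls, 8.08, 8.49 and 9.83 TPM in B6 CRS, 5.08, 5.89 and 5.78 TPM in BALB/c controls and 5.47, 6.52 and 7.35 TPM in BALB/c CRS. Its BALB/c libraries lay below its B6 libraries within each treatment, and it was called averaged over treatment (-0.41, SE 0.11, adjusted p 0.021, limma) but in neither treatment alone. That call was lost without B6 control 2 (adjusted p 0.0518), B6 control 3 (0.0536) or BALB/c control 5 (0.0512) and with the oligodendrocyte (0.755) or striatal score (0.525), 6 of 23 alternatives in all, and in controls a call was gained without B6 control 9 (0.0421).

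Irf8, an interferon regulatory factor needed for microglial development, stood at 3.59, 3.42 and 2.13 TPM in B6 controls, 4.02, 4.40 and 3.87 TPM in B6 CRS, 2.46, 2.71 and 2.63 TPM in BALB/c controls and 2.497, 2.15 and 2.47 TPM in BALB/c CRS. Under CRS all BALB/c libraries were below all B6 libraries (-0.60, SE 0.16, adjusted p 0.0455, limma), and in controls B6 control 9 was the lowest library of all 12 (-0.15, SE 0.16, adjusted p 0.684). The call under CRS was lost whichever of the 6 libraries was left out (0.0777 to 0.129), and the averaged call (-0.37, SE 0.11, adjusted p 0.0415) without any library but B6 control 9 (0.0599 to 0.0992). Over all alternatives these calls were lost in 14 of 17 and 19 of 22, with the oligodendrocyte (averaged, 0.858) and striatal scores (0.787) among them. Spi1, the gene of PU.1, stood at 4.06, 6.16 and 3.52 TPM in B6 controls, 3.35, 2.77 and 3.93 TPM in B6 CRS, 4.90, 1.92 and 2.69 TPM in BALB/c controls and 3.93, 3.04 and 4.88 TPM in BALB/c CRS. It showed no order by strain, with -0.46 (95% interval -1.03 to 0.12) in controls and 0.18 (95% interval -0.39 to 0.75) under CRS, and its second row of the table, 24.0% of its TPM, was listed at 0 in 7 of 12 libraries and at 3.38 TPM in BALB/c CRS 15. In its top row alone the difference under CRS was -0.29.

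Of the last 3 genes, 2 were lower in BALB/c. Olfml3, a secreted olfactomedin-like protein, stood at 6.98, 7.54 and 5.98 TPM in B6 controls, 6.17, 6.99 and 7.28 TPM in B6 CRS, 3.98, 3.499 and 4.14 TPM in BALB/c controls and 4.30, 4.94 and 4.81 TPM in BALB/c CRS. Hpgds, the prostaglandin D synthase of microglia, stood at 5.30, 4.59 and 3.22 TPM in B6 controls, 3.61, 2.52 and 3.73 TPM in B6 CRS, 1.92, 1.93 and 1.92 TPM in BALB/c controls and 1.96, 2.03 and 1.65 TPM in BALB/c CRS. For both genes all BALB/c libraries lay below all B6 libraries.

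The averaged log2 difference was -0.57 (SE 0.092, adjusted p 0.0015) for Olfml3 and -0.71 (SE 0.13, adjusted p 0.00277) for Hpgds, and in controls -0.68 (SE 0.13, adjusted p 0.00959) and -0.86 (SE 0.18, adjusted p 0.0162), by limma. In controls the call of Olfml3 was lost without B6 control 3 (adjusted p 0.0511, limma), and that of Hpgds without B6 control 2 (0.0756), B6 control 3 (0.0663), BALB/c control 5 (0.0564) or BALB/c control 10 (0.0622), in 4 of 18 and 8 of 17 alternatives in all. Neither averaged call held with an oligodendrocyte score (0.149 and 0.263) or a striatal score (0.0976 and 0.269). Aif1, the gene of the common microglial stain Iba1, stood at 12.3, 13.4 and 16.3 TPM in B6 controls, 11.2, 11.3 and 10.2 TPM in B6 CRS, 13.3, 11.7 and 11.6 TPM in BALB/c controls and 13.9, 11.6 and 10.9 TPM in BALB/c CRS. Its strains overlapped in both treatments, with -0.18 (95% interval -0.46 to 0.11) in controls, 0.14 (95% interval -0.15 to 0.42) under CRS and -0.021 (95% interval -0.22 to 0.18) averaged, the last above 0 under median-of-ratios scaling (0.068), without B6 control 9 (0.032) and without BALB/c CRS 15 (0.012).

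**Figure D4:**
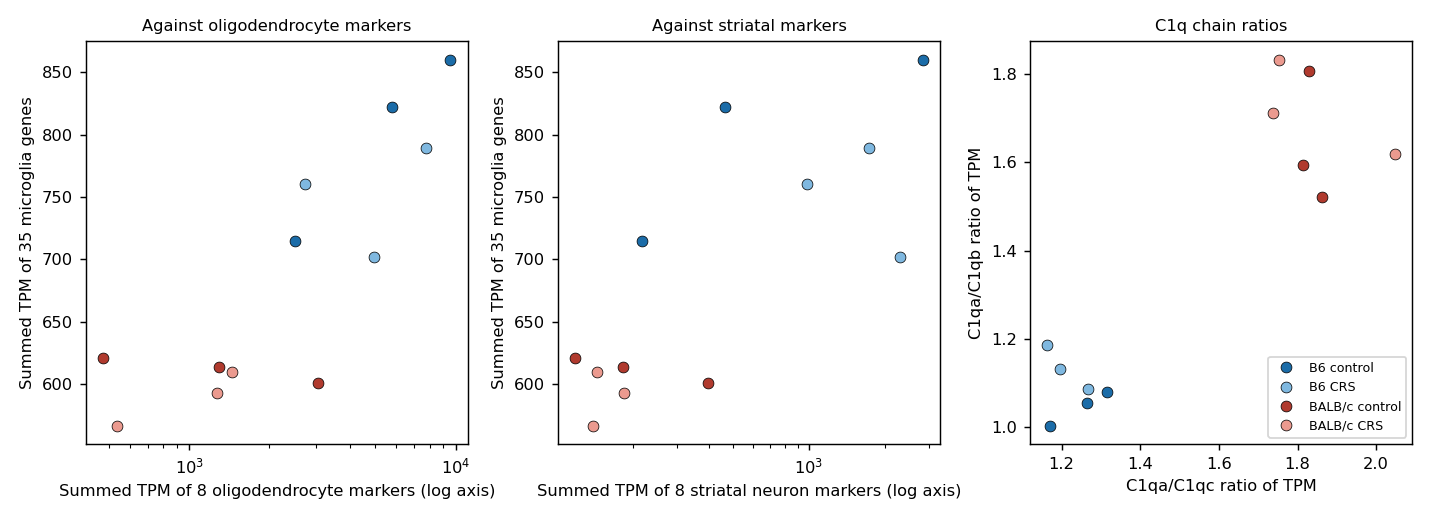
Left and middle, summed TPM of the 35 microglia genes (y axis) against the summed TPM of 8 oligodendrocyte and 8 striatal neuron markers (x axes, log scale), 1 point per library. Right, the C1qa/C1qb ratio against the C1qa/C1qc ratio; the 6 BALB/c libraries lie at 1.52 or more on the y axis and the 6 B6 libraries at 1.19 or less.

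The library with the highest sum of microglia genes, B6 control 2, also had the highest sum of oligodendrocyte and striatal markers, and markers of both populations stood lower in BALB/c, as the plot of sums shows. BALB/c control 9, with 3052 TPM of oligodendrocyte markers, lay above the 2486 and 2721 TPM of B6 control 9 and B6 CRS 14 on that measure, and its microglia genes summed to 601 TPM against 715 and 761 TPM there. These libraries were picked after their values were seen, and no cause was tested with them. With the oligodendrocyte score in the fit, 2 of the 35 genes were called in controls, 2 under CRS and 3 averaged, where the same fits called 277, 249 and 367 of all 16423 genes in either direction. With the striatal score 4, 1 and 3 of the 35 were called, and 515, 237 and 506 of all genes. The median difference of the 35 genes averaged over treatment was -0.27 with the oligodendrocyte score and -0.22 with the striatal score, against -0.31 without either. Both scores moved with strain, so these fits cannot fully separate strain from marker content.

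Other macrophages and blood cells could also carry these genes. The 8 perivascular macrophage markers summed to 7.70 to 12.4 TPM in B6 and 6.13 to 9.61 TPM in BALB/c, 4 of the 8 (Cd163, Lyve1, F13a1 and Ms4a7) stayed under 1 TPM in every library, and none of the 4 tested was called between strains. The 11 blood leukocyte and erythroid genes summed to 15.6 to 95.4 TPM in B6, the highest in B6 control 2, and to 5.26 to 30.7 TPM in BALB/c, and the T cell gene Cd3e was listed at 0 in all 12. Of the 5 tested, only Ly6c2, a surface protein of monocytes that endothelial cells also carry, was called. It was higher in BALB/c, at 0.183 to 0.566 TPM in B6 and 3.87 to 7.95 TPM in BALB/c (averaged 2.15 (SE 0.15, adjusted p 1.06e-06), limma). As it stayed under 1 TPM in every B6 library, Ly6c2 was tested only because of its BALB/c values. The other tested genes all lay below 0 averaged over treatment (4 of 5), and the median of the 5 was -1.17. The part of these cells in the strain differences was not tested.

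Further microglia genes outside the 35 were taken from lists, and no fit with a marker score was made for them. Of 25 tested genes of a second microglia list, 6 were called lower in BALB/c averaged over treatment and none higher, where 14.3% of all genes were called lower. Mertk, a phagocytic receptor, stood at 12.4, 14.9 and 20.3 TPM in B6 controls, 13.4, 13.4 and 15.1 TPM in B6 CRS, 9.51, 7.02 and 9.36 TPM in BALB/c controls and 7.88, 9.08 and 9.28 TPM in BALB/c CRS. Its BALB/c libraries all lay below its B6 libraries (-0.71, SE 0.12, adjusted p 0.00215 averaged, limma), as did those of the leukotriene C4 synthase Ltc4s (-0.93, SE 0.13, adjusted p 0.000688) and of the surface receptor Cd84 (-0.79, SE 0.13, adjusted p 0.00164). These 3 were called in controls and under CRS as well. The list's median averaged difference was -0.20, against -0.08 over all genes.

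Genes linked to activated microglia were partly near 0, partly lower in BALB/c and in 1 case higher (averaged log2 difference 0.54). The cytokines Il1b and Tnf and the chemokines Ccl3 and Ccl4 stood at no more than 1.07, 0.172, 0.529 and 0.389 TPM in any library, and Cst7, Itgax and Clec7a at no more than 0.593, 0.226 and 0.469 TPM. Of 13 tested genes on that list, 7 were called lower in BALB/c averaged over treatment and 1 higher, where 14.3% of all genes were called lower and 18.4% in either direction. B2m, the light chain of MHC class I, was at 89.5 to 121 TPM in B6 and 59.9 to 71.9 TPM in BALB/c (-0.69, SE 0.080, adjusted p 0.000117, limma), and Cd52, a small leukocyte glycoprotein, at 4.09 to 5.49 and 0.282 to 4.13 TPM (-1.28, SE 0.22, adjusted p 0.00225). Apoe (-0.43, SE 0.087, adjusted p 0.00596) and Cd63 (-0.52, SE 0.11, adjusted p 0.00683) are made in large part by other cells. Of 9 tested complement genes outside C1q, 1 was called lower in BALB/c and 1 higher averaged over treatment, against the same shares of all genes. The C1 inhibitor Serping1 was lower (-0.80, SE 0.15, adjusted p 0.00402, limma). Cd59a, which blocks the membrane attack complex, was higher (0.87, SE 0.11, adjusted p 0.000204, limma).

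No CRS comparison called any of the 35 genes. In B6, none was called against 0% of all genes by limma, and 1 of 35 had an unadjusted p under 0.05 against 4.82% of all genes. In BALB/c none was called against 0.00609% of all genes, and none had an unadjusted p under 0.05 against 3.03%. Averaged over strain none was called against 0.00609%, and 1 of 35 had an unadjusted p under 0.05 against 5.17%. The strain by CRS interaction was called for none of the 35 against 0% of all genes, and none had an unadjusted p under 0.05 against 2.7%. No alternative called any of the 35 in these 4 comparisons, and the summed level of the set was 799 ± 75.3 TPM in B6 controls and 751 ± 44.6 TPM in B6 CRS, and 612 ± 10.3 TPM in BALB/c controls and 590 ± 21.6 TPM in BALB/c CRS (SD, n = 3 each).

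The members of lowest p in B6 were Aif1, with a difference of -0.33 (unadjusted p 0.0292, adjusted p 1, limma), and Irf8, with 0.35 (unadjusted p 0.0516, adjusted p 1, limma). All 3 CRS libraries of B6 lay below the controls for Aif1 and above them for Irf8. In the top row of Aif1 alone, which was listed at 0 in B6 control 9, the sign turned (0.95). Such division was seen for 5 genes downward (Aif1, Fcrls, Gpr34, Itgam and Cd53), against 3.7% of all genes, and for 1 upward, against 4.63%. In total 28 of the 35 differences in B6 were below 0, against 49.7% of all genes, with a median of -0.07.

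In BALB/c the members of lowest p were Tmem119 (-0.24, unadjusted p 0.0913, limma) and Olfml3 (0.22, unadjusted p 0.114, limma), each with an adjusted p of 1. The CRS libraries of BALB/c lay above the controls for Olfml3 (5.36% of all genes) and below them for P2ry12 (2.02% of all genes). Of the 35 differences 19 were below 0, against 37.4% of all genes. Averaged over strain, Gpr34 (-0.20, unadjusted p 0.0396) and Cd68 (0.25, unadjusted p 0.104) had the lowest p in each direction and 25 of 35 differences were below 0, against 42% of all genes. For the interaction these were Irf8 (-0.45, unadjusted p 0.0752) and Spi1 (0.64, unadjusted p 0.113), by limma, and 11 of 35 were below 0, against 40.3% of all genes. For Fcrls, C1qb and C1qc the 95% interval of the interaction was -0.42 to 0.61, -0.33 to 0.45 and -0.41 to 0.34. Their strain differences were thus not shown to change with CRS, and changes within those intervals were not excluded with 3 libraries a group.

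**Figure D5:**
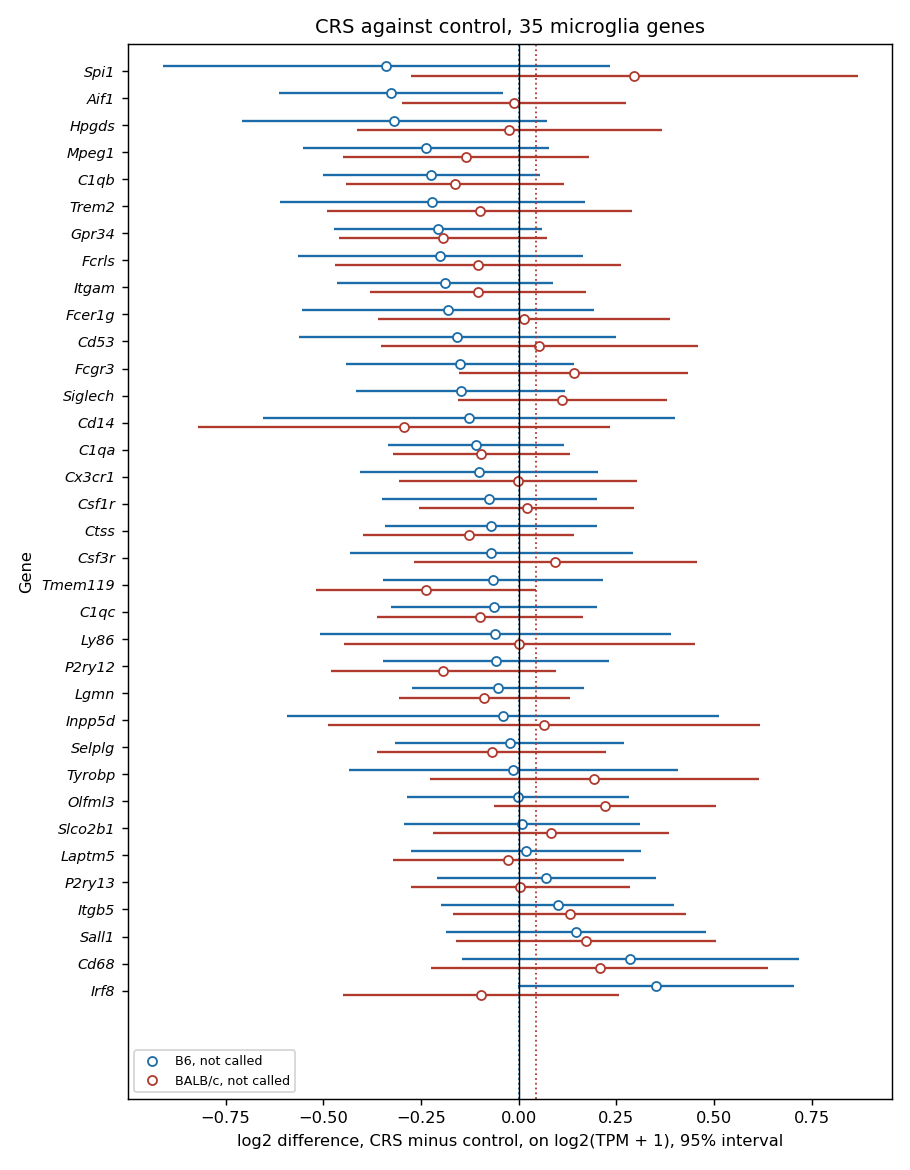
Log2 difference of CRS minus control on the log2(TPM + 1) scale (x axis) for the 35 microglia genes (y axis, ordered by the difference in B6), in B6 (blue) and BALB/c (red), with 95% limma intervals; dotted lines mark the median of all 16423 genes. All points are open, as no gene had an adjusted p under 0.05, and nearly all intervals include 0, with Aif1 in B6 the exception.

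Some of these genes share sequence or position with others. Exons of Cx3cr1 (Gm33858), P2ry12 (Med12l), Slco2b1 (Gm15635 and Gm34280) and Csf1r (Hmgxb3) overlap exons of a gene on the opposite strand in GENCODE M21, and those of Itgam a gene on the same strand (Gm49368). The library kit keeps strand, but whether the counting used it is not given in the sources used here, so reads of these pairs may not be fully told apart. Near-identical copies were searched with the longest transcript of each gene. A copy was a single alignment at 95% identity or more over at least 80% of the shorter transcript. No such copy covered more than 10.5% of the transcript of a gene of the 35. Stretches shared over a smaller part of both transcripts were not counted.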

How the data were processed

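RNA from prefrontal punches was extracted with TRIzol and made into stranded poly(A) libraries (TruSeq Stranded mRNA) read as pairs of 150 bases on an Illumina NovaSeq, per the labels' protocols. The submitters' processing notes name cutadapt 2.9, Salmon and GRCm38. The deposited table gives the authors' TPM, per the file headers, on 147902 rows of 55678 gene names, of which 21277 names stand on more than 1 row. The labels give a nominal 6 Gb of reads per library. Every column sums to 1000000, so the number of reads behind each value is unknown and no counting interval can be given. The build is that of C57BL/6J, and its part in strain differences was not tested.

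Rows were summed per gene name. The genes tested, those at 1 TPM or more in 3 or more of the libraries, were fitted as log2(TPM + 1) in limma 3.58.1 (R 4.3.3) with 4 group means, an intensity trend, 8 residual degrees of freedom and Benjamini-Hochberg adjustment over 16423 genes. Fold changes are on that scale, which understates low genes. The fit was tested on simulated data. The 35 genes, the other gene lists, the ratios and the motifs were chosen with earlier results of these data known. Genes with all library values in the text are Cx3cr1, P2ry12, Tmem119, Csf1r, the 3 C1q genes, Trem2, Tyrobp, Aif1, Spi1 and Sall1, and genes called in a comparison (the 8 of lowest p where more were called). Where none was called, the gene of lowest p in each direction is named, and lists name at most 4 called genes and every ligand. Values of further genes are given for completeness and were chosen after they were seen.

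Alternatives were another pseudocount (0.1), a mean of at least 5 TPM, no filter, median-of-ratios scaling, rescaling without mitochondrial, Bc1 and ribosomal RNA, no intensity trend, only the 2 groups compared, a replicate block, oligodendrocyte or striatal marker scores as covariates, and each library left out. Using only the top row of each gene, and leaving out B6 control 2 and BALB/c CRS 12 together, were added after seeing the data.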

Additional observations from a re-analysis of the deposited data

How the results depend on the processing

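Fcrls, C1qb and C1qc stayed lower in BALB/c under every alternative run, and Fcrls kept its call in all of them. Of 10 microglia genes called between strains in controls, 6 remained in number under median-of-ratios scaling, 6 after rescaling without mitochondrial, Bc1 and ribosomal RNA, 4 with only the 2 groups compared, 2 with the oligodendrocyte score, 4 with the striatal score, 5 with B6 control 2 and BALB/c CRS 12 both left out, and 4 to 13 with 1 library left out. Of 6 under CRS, the numbers were 3 with no filter, 3 under median-of-ratios scaling, 3 after rescaling, 2 with the oligodendrocyte score, 1 with the striatal score and 3 to 4 with 1 library left out. Of 17 averaged over treatment, they were 3 with either score, 11 with both libraries left out and 13 to 17 with 1 left out. Calls over all genes ran from 277 to 788 in controls (777), 237 to 1438 under CRS (1264) and 367 to 3198 averaged (3021), and with 1 library left out from 425 to 1378, 539 to 920 and 1972 to 3787. For CRS in B6 they reached 7 with no filter (0).

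A replicate block on library numbers shared between strains gave 9, 4 and 14 called microglia genes (controls, CRS, averaged) and 565, 750 and 2455 calls over all genes. Same-numbered libraries had correlations of -0.242, -0.0293 and -0.0361 in their deviations from group means. The labels do not say what the numbers mean, and these values cannot show whether same-numbered libraries share anything else. For CRS against control within a strain no number is shared, so no paired analysis was possible.

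Signs turned only for differences that were not called, and the cause was not tested. Under CRS, Cx3cr1 (-0.048) was 0.017 under median-of-ratios scaling, 0.0056 after rescaling, 0.042 with the striatal score, 0.043 in its top row, 0.06 with both libraries left out and -0.114 to 0.05985 with 1 left out. Tmem119 (-0.051) was 0.014, 0.0021 and 0.0396 under the first 3 of these and -0.1291 to 0.0065 with 1 left out. P2ry12 was -0.08484 to 0.1782 with 1 left out, Tyrobp 0.081 and Aif1 -0.093 with the striatal score, and in their top rows Aif1 was -0.37 and Spi1 -0.29. Averaged over treatment, Aif1 was 0.068 under median-of-ratios scaling, 0.051 after rescaling, 0.35 in its top row and -0.06755 to 0.03157 with 1 left out, Tmem119 -0.01274 to 0.08175 with 1 left out, and Cx3cr1 0.00502 with both libraries left out. In its top row Aif1 was 1.07 between strains in controls and 0.95 for CRS in B6.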

Other observations

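Fcrls and the C1q genes did not share the order of libraries within a strain. In B6, Fcrls was highest in B6 control 9, at 18.7 TPM, the B6 library with the lowest sums of oligodendrocyte (2486 TPM) and striatal (217 TPM) markers, whereas C1qb and C1qc were highest in B6 control 3. The cause of these orders was not tested. For CRS in B6, all 3 CRS libraries lay below the controls for Fcrls, Aif1, Gpr34, Itgam and Cd53, against 3.7% of all genes. None of these was called by limma, where 792 of all genes had an unadjusted p under 0.05 and none was called.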
